A study of Mus musculus with 10 samples.

Results

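Glycolysis genes and hypoxia-inducible genes were described across 5 groups of cells of RAW264.7, an established mouse line with macrophage properties. The 40 genes were taken by name: a probe belonged to the group if its gene name in the array files was one of the 40 symbols or an older synonym. All 40 were on the array, with 66 probes, and 37 were measured, out of 18051 genes measured in all. They comprised 4 transporters of glucose and lactate, 20 genes of the glycolytic enzymes and their regulators, 3 genes of oxygen sensing and 13 hypoxia-inducible targets. There were 2 arrays for each group. Dex stands for dexamethasone and FF for fluticasone furoate. VSG22 and VSGC12 were the other glucocorticoids, all at 100 nM, and EtoH was the group without one. Per the labels, the glucocorticoid went on 1 hour ahead of 1 µg/ml lipopolysaccharide (LPS), a bacterial product to which macrophages respond with inflammation, and cells were harvested at 16 hours. VSG22 and VSGC12 are known here by their code names alone. The labels state neither whether the EtoH cells were given LPS nor whether the 2 replicates of a group were separate cultures. EtoH is therefore read as solvent without glucocorticoid. If its cells had no LPS, LPS and glucocorticoid cannot be told apart in any comparison with EtoH. The tests measure the spread between these arrays, which may be technical. No group was described as kept at low oxygen.

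Glycolysis splits glucose into pyruvate, and cells that turn pyruvate into lactate can run it without oxygen. Hypoxia-inducible factor 1 (HIF-1) is the transcription factor that raises many genes of this pathway, together with genes for blood vessel growth, mitophagy and matrix modification. Its alpha subunit, Hif1a, is marked for degradation by the oxygen-dependent prolyl hydroxylases Egln1 and Egln3. Macrophages given LPS are known to stabilise HIF-1 alpha in the presence of oxygen and to raise glucose uptake and lactate output. Several steps are served by more than 1 isoform gene, and the isoforms differ in which cells and conditions they are known from.

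Each array carried 55681 probes, and between 40.05% and 44.45% of its spots that were not controls were well above background, with 0 saturated. Values below are log2 processed signals with the array's own 75th percentile set to 0, so a level has meaning only within 1 gene's probe. Replicates differed by an SD of 0.612 (log2, over genes) in Dex and of 0.314 to 0.381 in the other groups, and 9.54% of the genes lay in local patches of stray signal on a Dex array, 1 of the 40 among them (Hk3). All 12 macrophage markers were detected on all 10 arrays, and their summed linear signal, in units of the 75th percentile, was 1107 to 1226 on the treated arrays and 995.7 to 1027 on the EtoH arrays. For the mean of the 4 glucocorticoids against EtoH, 4 of the 12 were higher, 3 were lower and 5 did not pass the test. Over all genes 21.6% were higher and 22.5% lower. Itgam (a log2 change of 1.29), Csf1r (1.18), Lyz2 (0.94) and Tyrobp (0.31) rose. Aif1 (-0.62), Adgre1 (-0.24) and Mpeg1 (-0.23) fell, so the sum hides changes in both directions. None of 5 B-cell and none of 5 epithelial markers was detected. Of 7 T-cell markers 5 were detected on some array, and Cd3d and Cd8a on none. Cd4 (a log2 change of 1.24) and Il7r (-1.51) passed the test in opposite directions, while Lck (0.08) and Cd3e (-0.16) did not pass. The list summed to 55.5 to 131.1 on treated and 44.2 to 46.0 on EtoH arrays. Of 7 neutrophil and mast cell markers 5 were detected on some array. Elane (1.12, limma adjusted p = 0.0445) was higher and Camp (-0.52) was lower, while Mpo was detected on 1 array and Ltf on 0. Tpsb2 (a log2 change of 0.57) was detected on 9 arrays, with 1 of the 2 EtoH arrays among them. It entered the test through the treated groups, so no test is given for it. The list summed to 38.05 to 136.7 on treated and 30.66 to 39.95 on EtoH arrays. That of 4 endothelial markers, with Kdr (-0.55, adjusted p = 0.00899) the 1 gene detected, summed to 4.75 to 6.93 on treated and 8.05 to 8.78 on EtoH arrays. For 7 fibroblast markers the sums were 0.49 to 0.76 and 0.46 to 0.56. The part of these lists in the results below was not tested. In bulk RNA, fewer cells that use a gene and less of its RNA per cell cannot be told apart.

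Against EtoH, the mean of the 4 glucocorticoids was lower for 17 of the 37 measured genes and higher for 7, while 13 did not pass the test (limma, adjusted p under 0.05). The background was 22.5% of all tested genes lower and 21.6% higher, so the members' 45.9% lower was above the background share and their 18.9% higher was near it. The lower calls came mostly from 1 role: 10 of the 12 measured hypoxia-inducible targets were lower, 1 was higher and 1 did not pass, with a median log2 change of -0.759. Among the 24 genes of glucose transport, glycolysis and pyruvate use, 11 did not pass and the median was -0.01. Of the 24, 7 (29.2%) were lower and 6 (25%) higher, both near the background share. Without EtoH replicate 1 these were 4 and 4, without EtoH replicate 2 4 and 2, and with the array median subtracted 2 and 3. The median over the 37 was -0.183, against -0.004 for all tested genes. All 8 treated arrays lay below both EtoH arrays for 19 of the 37 (24.7% of all genes) and above both for 8 (22.9% of all genes). The EtoH arrays weighed heavily on the calls, which became fewer over all genes as well as among the members when 1 was left out. Such a fit holds a single EtoH array, so sizes are given here. The members' median was -0.208 without EtoH replicate 1 and -0.162 without EtoH replicate 2. With each array's median subtracted in place of its 75th percentile, which moved the median change of all genes to 0.118, 8 members were lower and 4 higher, and 6.18% of all genes were lower and 14.7% higher.

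**Figure D1:**
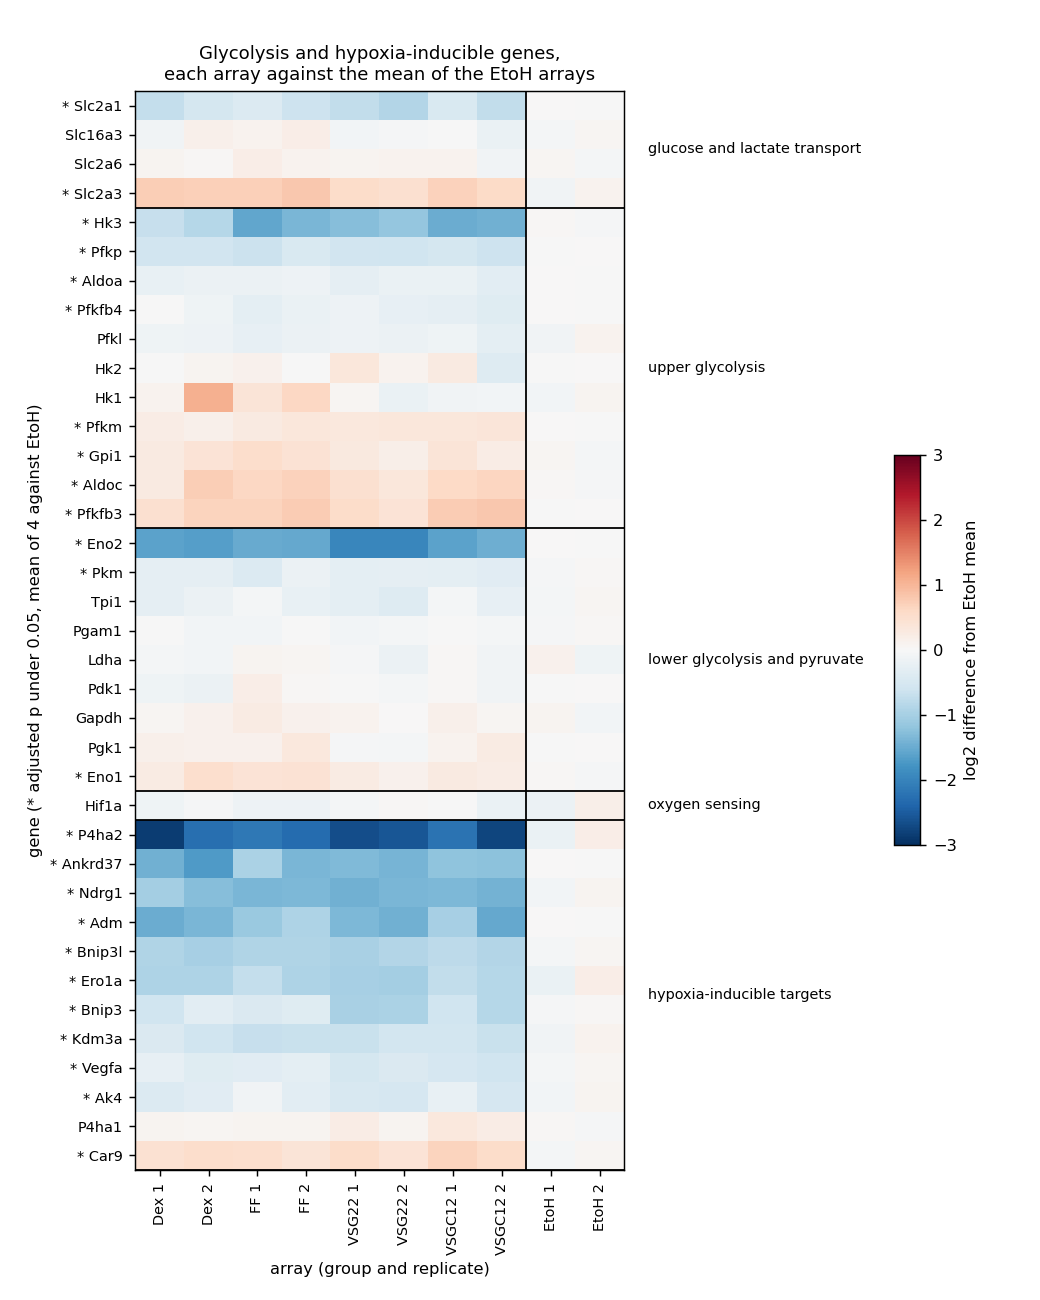
Heat map of the 37 measured genes (rows, by role, then by log2 change) on the 10 arrays (columns, treated groups left of the line and EtoH right of it). Colour gives the log2 difference of the array from the mean of the 2 EtoH arrays, and asterisks mark the 24 genes called for the mean of the 4 glucocorticoids. The hypoxia-inducible targets at the bottom are blue on all 8 treated arrays, apart from P4ha1 and Car9 in red, while the glycolysis rows hold both colours.

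Of the 12 measured hypoxia-inducible targets 10 fell, from a 5.54-fold lower signal for P4ha2 to a 1.28-fold lower signal for Ak4. Fewer passed without either EtoH array. The median log2 change of the 12 was then -0.828 (without replicate 1) and -0.646 (without replicate 2). With the array median subtracted 6 were lower, against 6.18% of all genes. Of the 10, 9 passed in each single comparison as well; Ak4 passed in VSG22 alone. Some of these single calls were less stable than those of the mean: over the alternatives, Bnip3 passed in 12 of 20 for Dex and 12 of 21 for FF, and Vegfa in 11 of 20 for Dex and 15 of 21 for FF. P4ha2, an alpha subunit of the collagen prolyl 4-hydroxylase that matures collagen chains, was read by a probe at chr11:53945032-53945091 (mm9, as the files place it, like the probes below). Its log2 signal was -1.53 and -0.96 on the Dex arrays, -0.84 and -1.01 on FF, -1.36 and -1.26 on VSG22 and -0.90 and -1.44 on VSGC12, against 1.10 and 1.51 on EtoH. No treated array came near the EtoH arrays, and the mean of the 4 changed by -2.47 ± 0.20 (log2, SE, adjusted p = 0.000177). For Ndrg1, a stress-responsive gene named for its repression by N-myc (probe at chr15:66761057-66761116), the Dex arrays read 5.55 and 5.29, FF 5.18 and 5.20, VSG22 5.12 and 5.18 and VSGC12 5.22 and 5.14, against 6.49 and 6.63 on EtoH. All 8 treated arrays sat below both EtoH arrays, and Dex replicate 1 was the highest of them. The change was -1.33 ± 0.09 (adjusted p = 6.37e-05).

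Ankrd37, an ankyrin-repeat protein known as a HIF-1 target, had log2 signals of 0.45 and 0.18 on Dex, 0.95 and 0.52 on FF, 0.56 and 0.50 on VSG22 and 0.69 and 0.65 on VSGC12 arrays, against 1.89 and 1.89 on EtoH (probe at chr8:47082404-47082463). The groups did not overlap, and the mean of the 4 changed by -1.33 ± 0.12 (log2, SE, adjusted p = 0.000296). Adm encodes adrenomedullin, a vasodilator peptide, and its probe lay at chr7:117773088-117773147. It read -1.17 and -1.04 on Dex, -0.80 and -0.61 on FF, -1.03 and -1.12 on VSG22 and -0.68 and -1.22 on VSGC12 arrays, against 0.33 and 0.32 on EtoH. The 2 VSGC12 arrays lay far apart, but all treated arrays were below EtoH, and the change was -1.28 ± 0.14 (adjusted p = 0.000558). P4ha2, Ndrg1, Ankrd37 and Adm kept an adjusted p under 0.05 in all 21 alternative settings.

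The windows 250 bases before the RefSeq start (GRCm38.p6) are shown for the genes with the largest falls among those lower in each single comparison, because HIF-1 is known to bind the core motifs ACGTG and GCGTG. The sequences run 5′ to 3′ on the gene's strand, with capitals marking either motif on either strand (CACGT and CACGC are the reverse forms). P4ha2 is shown from chr11:54100674-54100923 (+ strand), Eno2, the enolase described below, from chr6:124769674-124769923 (- strand), Ankrd37 from chr8:45999851-46000100 (- strand) and Adm from chr7:110627407-110627656 (+ strand). Ndrg1 belongs to the same set and is only named.
P4ha2: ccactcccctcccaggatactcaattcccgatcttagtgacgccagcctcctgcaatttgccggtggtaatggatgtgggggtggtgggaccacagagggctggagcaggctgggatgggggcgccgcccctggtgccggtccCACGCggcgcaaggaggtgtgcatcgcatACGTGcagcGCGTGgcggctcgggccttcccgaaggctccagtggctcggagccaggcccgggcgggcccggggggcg
Eno2: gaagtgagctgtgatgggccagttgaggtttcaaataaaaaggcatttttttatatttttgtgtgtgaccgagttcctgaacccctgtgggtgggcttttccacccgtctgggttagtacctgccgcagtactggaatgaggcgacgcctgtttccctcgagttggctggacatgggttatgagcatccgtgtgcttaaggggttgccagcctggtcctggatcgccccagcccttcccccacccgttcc
Ankrd37: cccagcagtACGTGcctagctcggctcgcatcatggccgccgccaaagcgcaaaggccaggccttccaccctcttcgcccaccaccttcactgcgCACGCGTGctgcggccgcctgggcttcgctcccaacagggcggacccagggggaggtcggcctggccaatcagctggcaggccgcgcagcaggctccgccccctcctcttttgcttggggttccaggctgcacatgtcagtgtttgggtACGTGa
Adm: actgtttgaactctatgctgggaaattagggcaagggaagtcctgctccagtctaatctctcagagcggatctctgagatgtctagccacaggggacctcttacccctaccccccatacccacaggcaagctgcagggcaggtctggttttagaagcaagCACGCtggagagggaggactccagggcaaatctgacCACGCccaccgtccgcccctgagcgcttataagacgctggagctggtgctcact

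P4ha2 held ACGTG once, starting 78 bases before the gene start, and GCGTG at 69 bases and, reversed, further upstream. Ankrd37 held ACGTG at 241 and at 6 bases and a pair of overlapping GCGTG matches on opposite strands. Adm held GCGTG reversed at 90 and 54 bases, and the Eno2 window held neither motif. Over the 37 of 40 genes with a window in the table, 34 (91.9%) had at least 1 of the 2 motifs, against 41.5% of all 27025 genes with a window, and a gene with several windows counted once if any held it. The share was 90.9% (10 of 11) for the genes lower in each single comparison and 87% (20 of 23) for the genes of transport, glycolysis and pyruvate use. Mean GC content was 61.4% in the members' windows and 53.2% in all windows. Both motifs hold CG, so the shares are not matched for base composition. They are not matched for windows per gene either: the 37 members had 58 windows and the 27025 genes 32851. The 23 genes of transport, glycolysis and pyruvate use had 36, and the 11 lower in each single comparison 14. The hexamer AGAACA, 1 side of the palindrome that the glucocorticoid receptor is known to bind, was found on either strand for 8 of 37 members (21.6%) and for 18.2% of all genes. It was in none of the 11 genes lower in each single comparison and in 8 of 23 genes (34.8%) of transport, glycolysis and pyruvate use. A match or its absence describes these letters in these windows and nothing about binding.

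Bnip3l, a mitophagy receptor of the outer mitochondrial membrane, read 4.84 and 4.75 (log2) on Dex, 4.84 and 4.84 on FF, 4.77 and 4.87 on VSG22 and 4.95 and 4.85 on VSGC12 arrays, against 5.68 and 5.80 on EtoH. The 8 treated arrays lay within a narrow band below EtoH, and the change was -0.90 ± 0.07 (log2, SE, adjusted p = 0.000115). Its 4 probes gave changes of -0.95, -0.90, -0.65 and -0.38, each with an adjusted p under 0.05. Its relative Bnip3 read 6.15 and 6.43 on Dex, 6.32 and 6.39 on FF, 5.79 and 5.80 on VSG22 and 6.14 and 5.89 on VSGC12 arrays, against 6.72 and 6.77 on EtoH. VSG22 arrays were the lowest and FF and Dex arrays reached closest to EtoH, without overlap, and the change was -0.63 ± 0.10 (adjusted p = 0.0023). The other 2 Bnip3 probes both gave -1.25, the dimmer of them with stray signal nearby.

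Ero1a, the oxidase that forms disulfides in the endoplasmic reticulum, read 2.02 and 2.02 (log2) on Dex, 2.23 and 2.01 on FF, 1.95 and 1.93 on VSG22 and 2.20 and 2.08 on VSGC12 arrays, against 2.74 and 3.14 on EtoH. The treated arrays were close to each other and the EtoH arrays far apart, and the change was -0.88 ± 0.11 (log2, SE, adjusted p = 0.00117). Kdm3a, a histone demethylase, read 3.21 and 3.05 on Dex, 2.96 and 2.98 on FF, 2.98 and 3.09 on VSG22 and 3.09 and 2.98 on VSGC12 arrays, against 3.54 and 3.74 on EtoH. Its groups did not overlap and its change was -0.60 ± 0.08 (adjusted p = 0.00147). Vegfa, the main growth factor of blood vessels, read 1.82 and 1.69 on Dex, 1.72 and 1.75 on FF, 1.53 and 1.61 on VSG22 and 1.54 and 1.45 on VSGC12 arrays, against 1.995 and 2.11 on EtoH. VSG22 and VSGC12 arrays were all below Dex and FF arrays, and the change over the 4 was -0.41 ± 0.07 (adjusted p = 0.00308). The second Vegfa probe, which had stray signal nearby, gave -0.90. The calls of Bnip3, Kdm3a and Vegfa were lost in 1 setting of the 21, with the array median subtracted, where the adjusted p reached 0.0991, 0.11 and 0.321.

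Ak4, a mitochondrial adenylate kinase, read 3.75 and 3.82 (log2) on Dex, 4.06 and 3.83 on FF, 3.69 and 3.65 on VSG22 and 3.93 and 3.66 on VSGC12 arrays, against 4.08 and 4.24 on EtoH. FF replicate 1 nearly reached the lower EtoH array, and the change of -0.36 ± 0.10 (log2, SE, adjusted p = 0.0251) lost its call without EtoH replicate 1 (adjusted p = 0.0638), EtoH replicate 2 (adjusted p = 0.186) or VSG22 replicate 2 (adjusted p = 0.051). A second, dimmer Ak4 probe fell further, by -0.77 (limma, adjusted p = 0.00309). Car9, a membrane carbonic anhydrase widely used as a hypoxia marker, went the other way. It read 1.72 and 1.79 on Dex, 1.77 and 1.66 on FF, 1.83 and 1.69 on VSG22 and 1.94 and 1.83 on VSGC12 arrays, against 1.21 and 1.33 on EtoH. All treated arrays were above EtoH, the change was 0.51 ± 0.07 (adjusted p = 0.002), and the call stood in all 21 settings. P4ha1, the other alpha subunit of the enzyme that P4ha2 serves, gave 0.14 ± 0.07 (adjusted p = 0.115) by its brighter probe and -0.61 (adjusted p = 0.0242) by a dimmer one that lay in a patch of stray signal, so its probes disagree. Mxi1, an antagonist of Myc, was not detected on any array.

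**Figure D2:**
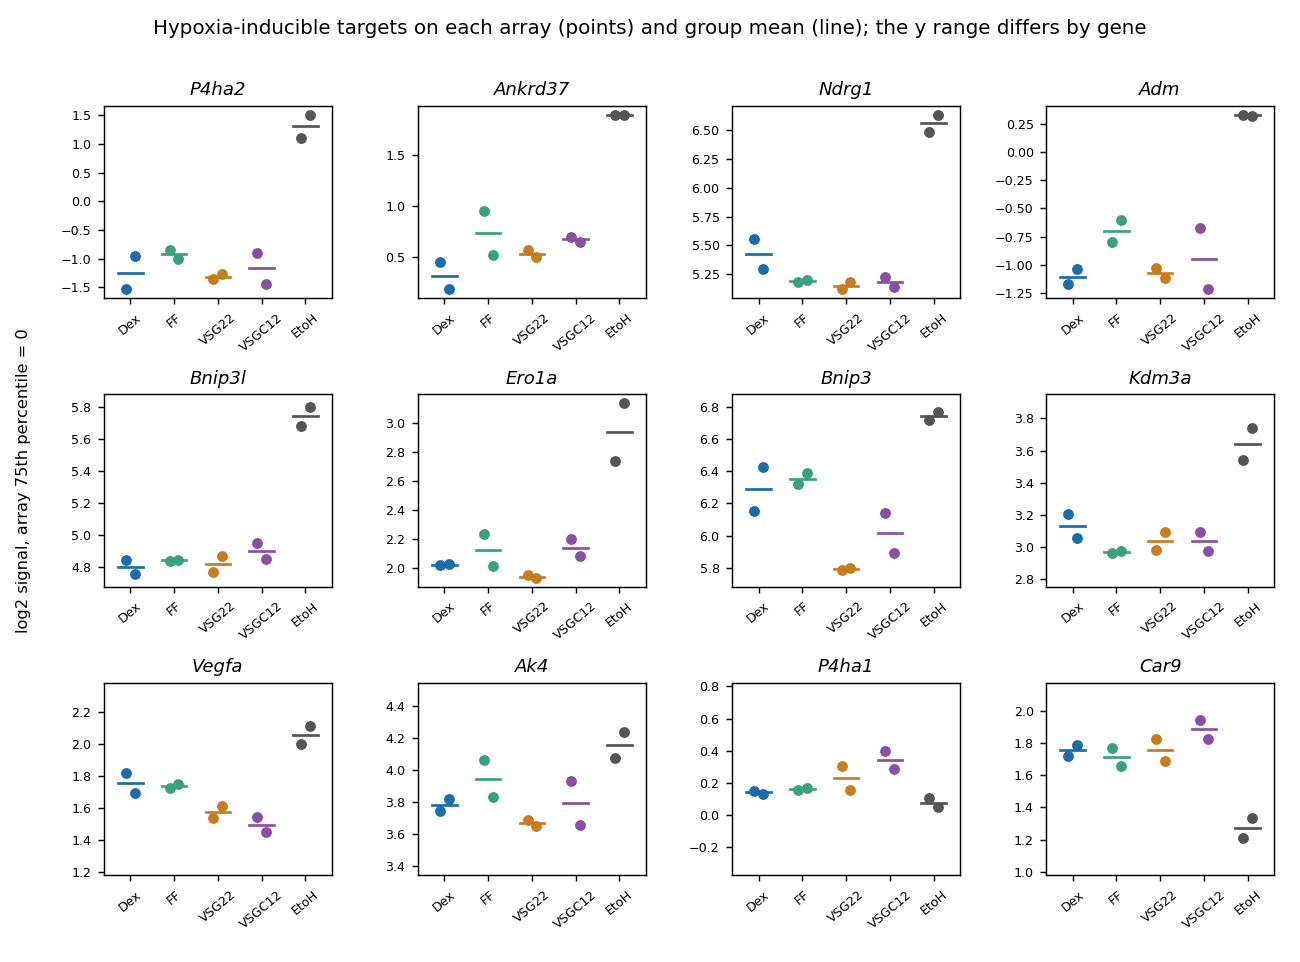
Log2 signal (array 75th percentile at 0) of the 12 measured hypoxia-inducible targets on each array (points), with the group mean as a line; the y range differs by gene. In 10 panels both EtoH points lie above all 8 treated points; in the P4ha1 and Car9 panels they lie below all of them.

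The HIF-1 alpha transcript did not pass the test. Hif1a read 2.45 and 2.53 (log2) on Dex, 2.43 and 2.42 on FF, 2.52 and 2.61 on VSG22 and 2.57 and 2.38 on VSGC12 arrays, against 2.41 and 2.74 on EtoH. All but 1 of the treated arrays fell between the 2 EtoH arrays, and the change was -0.09 (95% interval -0.32 to 0.15, adjusted p = 0.505). Egln1 was not detected on any array and Egln3 on EtoH replicate 1 alone, so no level of either prolyl hydroxylase is given.

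Among the transporters, 1 glucose carrier fell and another rose. Slc2a1 encodes GLUT1, the carrier of basal glucose uptake in most cells (probe at chr4:118809864-118809923). Its log2 signal was 7.02 and 7.19 on Dex, 7.33 and 7.10 on FF, 6.98 and 6.85 on VSG22 and 7.27 and 6.99 on VSGC12 arrays, against 7.75 and 7.70 on EtoH. The groups did not overlap, and the change was -0.63 ± 0.10 (log2, SE, adjusted p = 0.00312), a 1.55-fold lower signal. Slc2a3 encodes GLUT3, a high-affinity carrier known from neurons and leukocytes (probe at chr6:122678075-122678134). It read 1.91 and 1.89 on Dex, 1.88 and 1.97 on FF, 1.71 and 1.65 on VSG22 and 1.86 and 1.74 on VSGC12 arrays, against 1.06 and 1.26 on EtoH. All treated arrays were above both EtoH arrays, the change was 0.66 ± 0.07 (adjusted p = 0.000648), and it passed in all 21 settings, while the call of Slc2a1 was lost with the array median subtracted (adjusted p = 0.111). The lactate exporter Slc16a3 gave 0.01 (adjusted p = 0.968) and Slc2a6, another member of the glucose carrier family, 0.07 (adjusted p = 0.455).

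Upper glycolysis, the steps that trap glucose and split it into triose phosphates, held 4 lower, 4 higher and 3 genes that did not pass. The 4 were 36.4% in each direction, against 22.5% lower and 21.6% higher over all genes. Hk3, a hexokinase of myeloid cells, read 3.49 and 3.31 (log2) on Dex, 2.61 and 2.81 on FF, 2.91 and 3.01 on VSG22 and 2.69 and 2.74 on VSGC12 arrays, against 4.20 and 4.15 on EtoH (probe at chr13:55107900-55107959). Dex arrays were the highest of the treated arrays and FF and VSGC12 arrays the lowest, all below EtoH, and the change was -1.23 ± 0.08 (log2, SE, adjusted p = 6.7e-05). The Hk3 probe lay in a patch of stray signal on a Dex array, and within FF, VSG22 and VSGC12 the single changes were -1.47, -1.22 and -1.46, against -0.78 for Dex. The hexokinases Hk1 and Hk2, which bind mitochondria, did not pass: Hk2 gave 0.07 (adjusted p = 0.765), and Hk1 gave 0.23 by its brighter probe (adjusted p = 0.432) and -0.46 by the other (adjusted p = 0.0149). Dex replicate 2 of Hk1 read 8.29 and its partner 7.33, against 7.13 and 7.30 on EtoH, and without Dex replicate 1 Hk1 passed at 0.35 (adjusted p = 0.0313).

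Phosphofructokinase is the committing step of glycolysis, and its platelet-type subunit fell while its muscle-type subunit rose. Pfkp read 4.91 and 4.88 (log2) on Dex, 4.82 and 5.02 on FF, 4.89 and 4.86 on VSG22 and 4.94 and 4.85 on VSGC12 arrays, against 5.45 and 5.49 on EtoH. The single changes ran from -0.60 to -0.55, and that of the mean was -0.57 ± 0.07 (log2, SE, adjusted p = 0.000898). The mean's call stood in 20 of 21 settings, and its adjusted p reached 0.125. Pfkm read 1.00 and 0.94 on Dex, 1.03 and 1.11 on FF, 1.09 and 1.11 on VSG22 and 1.12 and 1.14 on VSGC12 arrays, against 0.79 and 0.76 on EtoH. The groups did not overlap, and the change was 0.30 ± 0.06 (adjusted p = 0.00544). It passed in 18 of 21 settings, and the adjusted p reached 0.136. In the comparison of Dex alone with EtoH, Pfkm passed in 0 of 20 alternative settings. Stray signal lay near the Pfkm probe on FF and VSGC12 arrays. The liver-type Pfkl gave -0.18 (adjusted p = 0.109).

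The bifunctional enzymes that make and break the main activator of phosphofructokinase were split in the same way. Pfkfb3, the isoform with the strongest kinase activity and a known LPS and hypoxia response, read 6.57 and 6.76 (log2) on Dex, 6.77 and 6.87 on FF, 6.65 and 6.52 on VSG22 and 6.86 and 6.91 on VSGC12 arrays, against 6.08 and 6.12 on EtoH. All treated arrays were above EtoH, the change was 0.64 ± 0.07 (log2, SE, adjusted p = 0.000797), and its second, dimmer probe gave 0.02 (adjusted p = 0.876). Pfkfb4 read 2.66 and 2.56 on Dex, 2.38 and 2.47 on FF, 2.52 and 2.43 on VSG22 and 2.41 and 2.33 on VSGC12 arrays, against 2.69 and 2.68 on EtoH. Dex replicate 1 all but reached EtoH, and the change of -0.21 ± 0.06 (adjusted p = 0.0342) lost its call without any 1 of EtoH replicate 1 (0.16), EtoH replicate 2 (0.145), FF replicate 1 (0.0577), VSG22 replicate 1 (0.0524), VSG22 replicate 2 (0.0707) or VSGC12 replicate 2 (0.0577, all adjusted p).

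Aldolase showed a small fall and a rise. Aldoa, the common isoform, read 9.23 and 9.27 (log2) on Dex, 9.27 and 9.29 on FF, 9.18 and 9.25 on VSG22 and 9.24 and 9.13 on VSGC12 arrays, against 9.45 and 9.44 on EtoH. The groups did not overlap, but the change of -0.21 ± 0.06 (log2, SE, adjusted p = 0.0239) did not pass without EtoH replicate 1 (0.13), EtoH replicate 2 (0.114) or VSG22 replicate 1 (0.0553). Aldoc, the isoform best known from brain, read 7.73 and 8.21 on Dex, 8.10 and 8.16 on FF, 7.95 and 7.80 on VSG22 and 8.07 and 8.11 on VSGC12 arrays, against 7.50 and 7.43 on EtoH. All treated arrays were above EtoH, with the Dex arrays far apart, and the change was 0.55 ± 0.12 (adjusted p = 0.00998), which became 0.59 without EtoH replicate 1 (0.0559) and 0.51 without EtoH replicate 2 (0.0798). Gpi1, the isomerase that follows hexokinase, read 8.84 and 8.98 on Dex, 9.08 and 8.99 on FF, 8.86 and 8.75 on VSG22 and 8.95 and 8.79 on VSGC12 arrays, against 8.61 and 8.51 on EtoH. It was above EtoH on all treated arrays, and its 3 probes gave 0.34, 0.29 and 0.26, the last with stray signal nearby. The change of 0.34 ± 0.08 (adjusted p = 0.0112) passed in 17 of 21 settings, and the adjusted p reached 0.124. In the comparison of VSG22 alone with EtoH, Gpi1 passed in 1 and Aldoc in 4 of 21 alternative settings.

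Lower glycolysis, from triose phosphate to pyruvate and lactate, held 1 large change. Eno2, the enolase isoform known as neuron-specific, read 3.15 and 3.10 (log2) on Dex, 3.24 and 3.21 on FF, 2.78 and 2.79 on VSG22 and 3.15 and 3.29 on VSGC12 arrays, against 4.76 and 4.74 on EtoH (probe at chr6:124710388-124710447). Replicates were close in every group, VSG22 was the lowest, and the change was -1.66 ± 0.06 (log2, SE, adjusted p = 8.14e-06), a 3.16-fold lower signal that passed in all 21 settings. The common enolase Eno1 read 9.32 and 9.58 on Dex, 9.50 and 9.51 on FF, 9.32 and 9.22 on VSG22 and 9.36 and 9.31 on VSGC12 arrays, against 9.12 and 9.05 on EtoH. It was above EtoH on all treated arrays, and its change of 0.31 ± 0.08 (adjusted p = 0.0197) lost its call without EtoH replicate 1 (0.0786) or EtoH replicate 2 (0.134). In the comparison of VSG22 alone with EtoH, Eno1 passed in 0 of 21 alternative settings. Pkm, the pyruvate kinase, read 7.62 and 7.61 on Dex, 7.48 and 7.71 on FF, 7.59 and 7.62 on VSG22 and 7.60 and 7.55 on VSGC12 arrays, against 7.85 and 7.91 on EtoH. The groups did not overlap, and its change of -0.29 ± 0.07 (adjusted p = 0.0178) did not pass without EtoH replicate 1 (0.0754) or EtoH replicate 2 (0.126).

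Ldha, the lactate dehydrogenase subunit that favours lactate, did not pass. It read 8.93 and 8.92 (log2) on Dex, 9.08 and 9.06 on FF, 8.97 and 8.83 on VSG22 and 9.04 and 8.89 on VSGC12 arrays, against 9.13 and 8.87 on EtoH, so the groups overlapped. Its change was -0.03 (95% interval -0.24 to 0.17, adjusted p = 0.772), and its other probes gave -0.14 and -0.21, neither passing. Gapdh, the triose phosphate dehydrogenase that is often used as a reference gene, read 9.82 and 9.90 on Dex, 10.01 and 9.89 on FF, 9.86 and 9.78 on VSG22 and 9.92 and 9.81 on VSGC12 arrays, against 9.83 and 9.68 on EtoH. Its groups overlapped too, its change was 0.11 (95% interval -0.06 to 0.29, adjusted p = 0.246), and its 7 probes gave -0.11 to 0.14, none passing. Among the rest, Tpi1 (triose phosphate isomerase) gave -0.21 (adjusted p = 0.0688) with its second probe at -0.25 (adjusted p = 0.0325), Pgk1 (phosphoglycerate kinase) 0.13, Pgam1 (phosphoglycerate mutase) -0.05 and Pdk1, the kinase that shuts pyruvate dehydrogenase, -0.02. The last 3 did not pass. The Pgk1 probe is placed on chromosome 3 by the files, and the gene lies on chromosome X. Likewise, the Gapdh probe with a change of -0.07 is placed on chromosome 8, and the gene lies on chromosome 6.

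**Figure D3:**
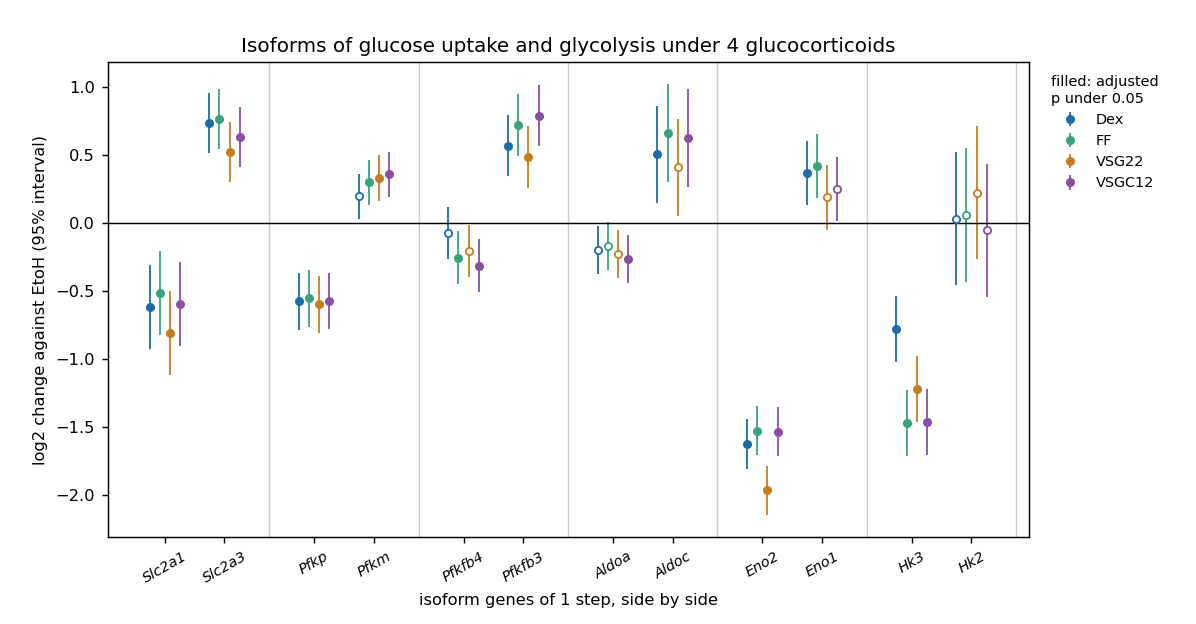
Log2 change against EtoH of isoform genes serving 1 step, for Dex, FF, VSG22 and VSGC12, with 95% intervals from the limma fit; filled points have an adjusted p under 0.05. Slc2a1, Pfkp, Eno2 and Hk3 lie below 0 for all 4 compounds and Slc2a3, Pfkm, Pfkfb3, Aldoc and Eno1 above 0. Of the genes above 0, Slc2a3 and Pfkfb3 alone passed for each of the 4 compounds.

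Because a ratio of 2 probes on the same array does not depend on the scaling between arrays, the isoforms were also set against each other as a description. The log2 ratio of Slc2a3 over Slc2a1 was higher by 1.30 on the treated arrays (1.12 to 1.45, with the EtoH arrays at -0.12 and 0.12). Pfkm over Pfkp was higher by 0.87 (0.75 to 0.99) and Pfkfb3 over Pfkfb4 by 0.85 (0.50 to 1.17). Aldoc over Aldoa was higher by 0.76 (0.49 to 0.96), Eno1 over Eno2 by 1.97 (1.69 to 2.20) and Hk2 over Hk3 by 1.30 (0.67 to 1.77). The EtoH arrays lay within 0.05 of their mean in the last 5 ratios. In each pair the gene with the higher change was set over the other, so the sign of the ratio follows from that order. Hk1 and Pfkl were not set in a ratio. Each ratio shows unequal change of its 2 probes and not which of them moved.

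Each glucocorticoid was also compared with EtoH alone, and these 4 comparisons share the EtoH arrays. With Dex 13 members were lower (background 15.7%) and 6 higher (16.5%), and with FF 15 were lower (19.2%) and 7 higher (17.9%). With VSG22 15 were lower (14.5%) and 4 higher (16.1%), and with VSGC12 16 were lower (18.3%) and 7 higher (17.2%). In either direction the 23 calls of VSGC12 stood against 35.5% of all genes. Lower in each of the 4 were 13 members, 9 of them hypoxia-inducible targets, against 10.1% of all genes, and 3 were higher in each (Slc2a3, Pfkfb3 and Car9), against 11% of all genes. P4ha2 changed by -2.55 with Dex, -2.23 with FF, -2.62 with VSG22 and -2.48 with VSGC12 (log2, SE 0.25 each), and Ndrg1 by -1.14, -1.37, -1.41 and -1.38 (SE 0.11) in the same order. The totals of 19, 22, 19 and 23 members called for the 4 compounds became as few as 12, 13, 12 and 15 when 1 array was left out: an EtoH array for Dex and FF, VSG22 replicate 1 for VSG22 and EtoH replicate 2 for VSGC12.

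In the 6 pairs of compounds at the shared dose and time, 0 of the 37 members passed (limma, adjusted over genes within a pair), and 0 passed when adjusted over genes and the 6 pairs together. The background was 0.654% of all genes called in at least 1 pair. By pair it was 0.366% for FF over Dex (0.0721% higher), 0.549% for VSG22 over Dex (0.194% higher) and 0.394% for VSGC12 over Dex (0.061% higher). It was 0.00555% for VSGC12 over FF, where the 1 gene called was lower, and 0 for VSGC12 over VSG22 and VSG22 over FF. At an unadjusted p under 0.05, 3 members differed for FF over Dex (14.4% of all genes), 4 for VSG22 over Dex (16.7%) and 5 for VSGC12 over Dex (14.8%). By the same rule 4 differed for VSGC12 over VSG22 (7.15%), 2 for VSGC12 over FF (4.21%) and 6 for VSG22 over FF (9.47%). The smallest adjusted p was that of Hk3, 0.064 for VSGC12 over Dex (-0.69) and 0.067 for FF over Dex (-0.69), whose probe lay in stray signal on a Dex array, with the part of that signal not tested. Hk3 passed in 1 pair or more with the normexp background, with an intensity trend in the spread and without Dex replicate 2, and without Dex replicate 1 Hk1 and Bnip3 passed instead. Eno2 was 0.43 higher with VSGC12 than with VSG22 (unadjusted p = 0.000838, adjusted p = 0.683), and Bnip3 was -0.56 with VSG22 over FF (unadjusted p = 0.00257, adjusted p = 0.517). The 95% interval of a difference reached 0.24 to either side of the estimate at the median, so a difference of that size would not be seen for most members. The interval is not adjusted over genes, and larger differences, such as those of Eno2 and Hk3, did not pass either. Between VSGC12 and FF, 31 of 37 intervals lay within 0.5 log2 units of 0, and between VSGC12 and VSG22 26 did.

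Other genes of the pathway, which are not among the 40, were counted by list for the mean of the 4 against EtoH. The lists are not independent: Gys1, Pgm1, Cited2 and Pfkfb2 stand among the further hypoxia-inducible genes and in another list too. Counts without an EtoH array, here and in the lists below, come from fits with a single EtoH array. In such fits calls became fewer over all genes as well. With the array median subtracted, 6.18% of all genes were lower and 14.7% higher. Of 32 further hypoxia-inducible genes measured, 15 were lower and 7 higher, with a median of -0.308 (background 22.5% lower and 21.6% higher). These were 11 and 5 without EtoH replicate 1, 10 and 5 without EtoH replicate 2, and 6 and 5 with the array median subtracted. Hmox1, the heme-degrading oxygenase, fell to 6.69, 6.37, 6.19 and 6.26 (group means, log2) with Dex, FF, VSG22 and VSGC12, against 8.24 with EtoH, a change of -1.86 ± 0.05 (SE, adjusted p = 4.42e-06). Bhlhe40, a repressor of the circadian clock, changed by -1.80 ± 0.14 (adjusted p = 0.000138). Edn1, the vasoconstrictor peptide endothelin, rose by 1.98 ± 0.08 (adjusted p = 1.15e-05). These 3 passed in every alternative that could be fitted. Cdkn3, a phosphatase of cell-cycle kinases, averaged -1.62, -1.34, -0.85 and -1.20 with Dex, FF, VSG22 and VSGC12, against -3.42 with EtoH. It was well above background on 1 of the 2 EtoH arrays and entered the test through the treated groups, so no test is given for it. Over the 29 genes of the list detected on all 10 arrays, 16 were lower and 6 higher. Among 11 genes of HIF control 2 were lower and 4 higher; Vhl, the part of the ubiquitin ligase that recognises hydroxylated HIF, fell by 0.50 on the log2 scale (SE 0.07, adjusted p = 0.00172). Without either EtoH array that list held 1 lower and 0 higher genes, and with the array median subtracted 0 of either, with Vhl no longer passing.

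Of 17 measured genes listed for the tricarboxylic acid (TCA) cycle, which burns acetyl groups in mitochondria, 13 were higher and 1 lower, with a median of 0.297. The list is wider than the mitochondrial cycle, as it also holds Aco1, Idh1, Mdh1 and Acod1. Fewer passed without either EtoH array, where the median was 0.325 (without replicate 1) and 0.295 (without replicate 2). Subtracting the array median left 4 higher, against 14.7% of all genes, with a median of 0.419. Idh3a, a subunit of isocitrate dehydrogenase, averaged 5.49, 5.73, 5.49 and 5.72 (log2) with Dex, FF, VSG22 and VSGC12, against 4.62 with EtoH, a rise of 0.99 ± 0.08 (SE, adjusted p = 0.000187). Idh2, the mitochondrial NADP-linked enzyme, rose by 0.80 ± 0.07 (adjusted p = 0.000266) and Mdh1, cytosolic malate dehydrogenase, by 0.49 ± 0.06 (adjusted p = 0.000782). Ogdh, the dehydrogenase of alpha-ketoglutarate, gave 1.03 ± 0.27 (adjusted p = 0.0193) but 0.97 (0.118) and 1.09 (0.089) without EtoH replicate 1 and 2.

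Of 7 pentose phosphate genes, whose pathway makes NADPH and ribose, 5 were higher and 0 lower, with a median of 0.385. With the array median subtracted 2 were higher, against 14.7% of all genes. Fewer passed without either EtoH array, where the median was 0.38 (without replicate 1) and 0.413 (without replicate 2). Rpia, the ribose phosphate isomerase, rose by 1.00 ± 0.08 (log2, SE, adjusted p = 0.000198), Tkt, the transketolase, by 0.43 ± 0.08 (adjusted p = 0.00545), and Rpe, the ribulose phosphate epimerase, by 0.39 ± 0.07 (adjusted p = 0.0063, and 0.0534 without EtoH replicate 2). Pgd, the phosphogluconate dehydrogenase, gave 0.55 ± 0.12 (adjusted p = 0.00922), with stray signal near its probe on Dex, and missed without EtoH replicate 1 (0.0896). Of 11 genes of the pyruvate dehydrogenase complex and its control, 4 were higher and 2 lower; Dlat and Pdhx, core proteins of the complex, rose by 0.82 ± 0.07 (adjusted p = 0.00027) and 0.71 ± 0.08 (adjusted p = 0.000712), and Pdha1, its first catalytic subunit, by 0.46 ± 0.07 (adjusted p = 0.00282). Pdk2, a kinase that shuts the complex, gave -0.54 ± 0.11 (adjusted p = 0.00689, but 0.0505 and 0.0555 without EtoH replicate 1 and 2). The median of the complex's list was 0.193. Fewer of its genes passed without either EtoH array, where the median was 0.165 (without replicate 1) and 0.261 (without replicate 2). With the array median subtracted the list held 2 higher and 0 lower genes, with Pdha1 no longer passing.

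Of 9 genes of glycogen metabolism 4 were lower and 1 was higher. The median was -0.234. Fewer passed without either EtoH array, where the median was -0.334 (without replicate 1) and -0.134 (without replicate 2). With the array median subtracted 1 was lower and 0 were higher, against 6.18% and 14.7% of all genes. Pygl, the liver-type glycogen phosphorylase, fell by 0.83 on the log2 scale (SE 0.10, adjusted p = 0.000833) and Ugp2, which makes UDP-glucose, by 0.54 (SE 0.07, adjusted p = 0.000933). Among 5 measured paralogs and side branches of upper glycolysis 4 were higher and 1 lower, without either EtoH array 3 and 0, and with the array median subtracted 2 and 0. Fbp1, the gluconeogenic fructose bisphosphatase, averaged -2.50, -2.28, -1.89 and -2.40 with Dex, FF, VSG22 and VSGC12, against -4.87 with EtoH, where it was not well above background on either array. It was at least 2.44-fold higher over the 4, the EtoH arrays being set to the dimmest well-above-background signal of each array. Fbp1 entered the test through the treated groups, so its p is not given, and with probes detected on all 10 arrays 3 of 4 genes in the list were higher and 1 lower. Adpgk, the ADP-dependent glucokinase, rose by 0.65 ± 0.10 (adjusted p = 0.00258) and Pfkfb1, a further bifunctional enzyme, by 0.42 ± 0.08 (adjusted p = 0.00485). Of 8 further genes of lower glycolysis and lactate, 2 were higher and 2 lower; Bsg, the chaperone of lactate transporters, fell by 0.46 (SE 0.08, adjusted p = 0.00329), and Eno3, the muscle enolase, and Pgam5, a mitochondrial phosphatase of the mutase family, both rose by 0.42 (adjusted p = 0.00554 and 0.00251). Without either EtoH array that list held 1 lower and 2 higher genes, and with the array median subtracted 0 and 1.

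**Figure D4:**
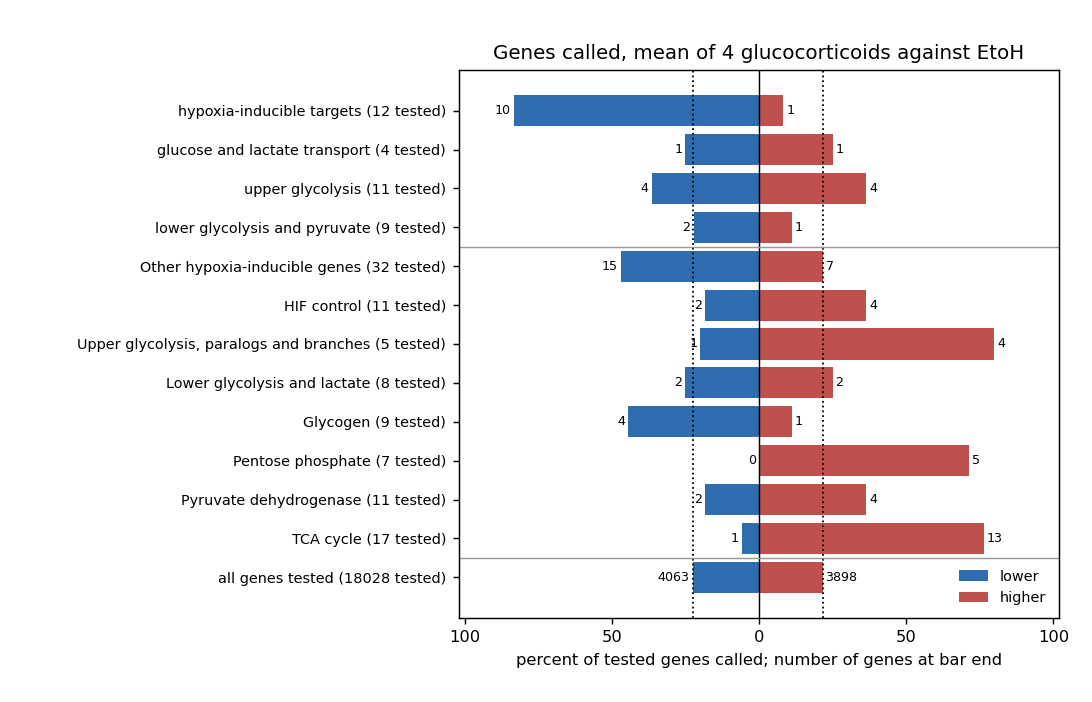
Percent of tested genes called lower (left) and higher (right) for the mean of the 4 glucocorticoids against EtoH, by role of the members (top 4 bars), by further pathway list (middle) and over all genes (bottom), with gene numbers at the bar ends. Dotted lines give the share over all genes, 22.5% lower and 21.6% higher. Some genes stand in several of the further lists. The hypoxia-inducible targets reach 83.3% lower and the TCA cycle list 76.5% higher.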

How the data were processed

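Per the file headers, the deposited files hold intensity values of 10 single-channel arrays from Agilent Feature Extraction 10.7.3.1: spot means, local background and a processed signal, background-subtracted and detrended within the array and not scaled between arrays. The submitters' processing notes list limma without a step. Spots with a non-uniformity or outlier mark were dropped, log2 processed signals were averaged per probe, and each array's 75th percentile was subtracted. Probes were named through RefSeq's gene table (GRCm38.p6, names only); positions are mm9. A gene was read by its brightest probe among those that the scanner software put well above background throughout 1 group or more. One limma 3.58.1 fit (R 4.3.3) covered the 5 groups (5 residual and 1.81 prior degrees of freedom); tests were two-sided, with Benjamini-Hochberg adjustment within a comparison and a threshold of 0.05. The number of arrays limits the precision. Scripts were tested on simulated data.

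Array values are given for members called in the mean of the 4 or a pair and for Hif1a, Slc2a1, Ldha, Pkm, Gapdh and Vegfa; up to 4 called genes with the largest change are named per further list, and up to 5 promoters. Array values of other members were picked after seeing them. The members and lists were chosen with earlier results of these data known. Each of the 2 slides held all groups, and a group's place on the slide was the same on both, so place and group cannot be told apart. Alternatives were other scalings, background, filters, probe rules, a slide block, a trend, left-out arrays and left-out patches.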

Additional observations from a re-analysis of the deposited data

How the results depend on the processing

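No member called for the mean of the 4 glucocorticoids changed direction in any of the 21 alternative settings. Of the 24 calls, 11 stood in every alternative that could be fitted and 16 in every one other than the array median; Hk3 and Pgam1 have no value without spots in patches. With the array median subtracted, 8 members were lower and 4 higher, and 6, 8, 6 and 7 were called for Dex, FF, VSG22 and VSGC12 against EtoH; 29.7% of all calls were then lower, against 4063 of 7961 calls as reported and 60.7% with the percentile taken over probes detected on all arrays. With no filter on dim probes, 4 members were higher, and 11, 12, 12 and 15 were called in the 4 single comparisons. Leaving out 1 array gave 13 to 17 lower and 3 to 8 higher members, 12 to 19 called for Dex, 13 to 22 for FF, 12 to 19 for VSG22, 15 to 23 for VSGC12 and 0 to 2 in the pairs. Normexp background and the intensity trend each gave 1 member in the pairs. With the replicate block (slide), 17 members were lower and 7 higher. Deviations from group means correlated between groups by slide with r of -0.04 to 0.32 over genes, and 5 of the 10 pairs of groups were over 0.1. As not all were, the numbers were not taken to pair the samples; a shared day or culture was not tested. Within slide 1 the members' median was -0.122 and within slide 2 -0.229, with 21 and 24 of 37 below 0. Hk1 passed in 1 setting, Pfkl in 2 and Tpi1 in 4. Signal over background limits Egln1, Egln3 and Mxi1.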
